A study of Rattus norvegicus with 15 samples.

Results

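Collagens, laminins and integrins are the chains of the extracellular matrix and the receptors that hold cells to it. Their expression was examined in rat mammary tumours after 3 early-life zinc diets. Members were all genes whose rat symbol, reached through the accession that the array design gives for a probe, is a collagen chain, a laminin chain or a numbered integrin subunit, with Itgam left out. The rat RefSeq table holds 78 such genes, and 40 of them were named on the array. A gene counted as measured when the scanner software marked one of its probes as well above background on 5 or more of the 15 arrays, which left 33 members of 8378 measured genes. Each was represented by its probe with the highest mean level. They comprised 7 fibrillar collagen chains, 6 other collagen chains, 8 basement membrane chains (type IV collagens and laminins) and 10 integrin subunits. The other 2, Itgb1bp1 and Itgb3bp, encode proteins that bind integrin subunits and were kept apart. The 7 named genes below that limit were Col23a1, Col6a2, Itga10, Itga5, Itgb1bp2, Itgb3 and Lamc3. The remaining 38 genes, among them Col4a2, Lama3 and Itga6, are not analysed here. Just inside the limit stood Col4a4, with a signal on 5 arrays, and just outside it Col6a2, with a signal on 3.

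The tumours were tubular or papillary and came from female Sprague-Dawley rats killed at 180 days of age, 5 tumours to a diet. Dams ate chow with 3 mg zinc per kg (deficient), an adequate 35 mg per kg (control) or 180 mg per kg (supplemented) from gestation day 10 to weaning on day 21. Daughters stayed on the dam's chow to day 51. On that day every rat, controls included, was given the mammary carcinogen DMBA into the stomach at 50 mg per kg, and all then ate the adequate chow to day 180, so no group lacked DMBA and no diet was still being fed at sampling. The labels call the control group a negative control and do not state its chow, and reading it as the adequate diet of the study design is an assumption. A free-text label speaks of mammary gland at day 21, while the tissue and age labels, which were followed, give a mammary tumour at 180 days. The 16 dams of each group are stated, but not whether 2 tumours could share a rat or a litter, so p-values speak only of the spread among the sampled tumours.

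Fibrillar collagens are trimers that pack into the load-bearing fibres of the stroma, and most are secreted by fibroblasts. Type IV collagen and laminins form the sheet on which mammary epithelium rests, and laminin-332, which holds the Lamb3 chain, anchors basal cells through the integrin alpha6 beta4. Integrins are dimers of an alpha and a beta chain: beta1 partners serve matrix adhesion widely, beta6 is epithelial, and beta2 and beta7 serve leukocytes. Zinc enters this biology at several points, since the enzymes that cut collagen are zinc proteins and the zinc-sensing factor Mtf1 binds a short metal response element in DNA.

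Promoter sequences are shown for 3 members whose tumour-to-tumour patterns recur below: a fibrillar chain, a basement membrane collagen and a laminin-332 chain. Each window runs from 250 bases before to 50 bases after the annotated start, 5′ to 3′ along the gene, from RefSeq on GRCr8. All 3 lie on the plus strand. The capitals mark every match on either strand to a motif. The motifs were the TATA box, searched as TATAAA. Next came the box bound by the factor NF-Y, searched as CCAAT. The GC box bound by Sp1 was searched as GGGCGG. The core of the metal response element was searched as TGCACNC and in its other spelling as TGCGCNC. No motif contains another, so matches can overlap only in part.
Col1a2 at chr4:33518307-33518606: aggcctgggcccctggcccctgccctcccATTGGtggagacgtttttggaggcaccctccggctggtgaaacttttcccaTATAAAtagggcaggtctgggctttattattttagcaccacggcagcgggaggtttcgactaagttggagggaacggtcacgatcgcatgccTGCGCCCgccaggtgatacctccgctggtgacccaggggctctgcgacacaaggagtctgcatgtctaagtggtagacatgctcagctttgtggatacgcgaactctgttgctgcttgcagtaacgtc
Col4a1 at chr16:84885347-84885646: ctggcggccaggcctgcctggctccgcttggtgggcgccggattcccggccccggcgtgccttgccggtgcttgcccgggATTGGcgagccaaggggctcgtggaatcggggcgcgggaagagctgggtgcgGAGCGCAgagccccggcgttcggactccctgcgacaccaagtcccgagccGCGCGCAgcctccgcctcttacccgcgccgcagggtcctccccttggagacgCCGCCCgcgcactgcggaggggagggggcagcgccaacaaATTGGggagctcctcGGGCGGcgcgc
Lamb3 at chr13:107362303-107362602: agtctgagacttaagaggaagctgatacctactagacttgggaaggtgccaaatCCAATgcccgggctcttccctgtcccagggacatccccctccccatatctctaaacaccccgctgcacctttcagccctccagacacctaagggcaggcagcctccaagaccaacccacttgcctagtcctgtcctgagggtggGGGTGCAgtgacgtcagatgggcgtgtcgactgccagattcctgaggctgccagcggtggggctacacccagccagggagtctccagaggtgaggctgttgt

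Counting from 1 at the annotated start, with no base 0, the Col1a2 window held the TATAAA letters at base -170, a reversed CCAAT at -221 and a metal response core at -78. From base 1 the Col1a2 window reads atg and goes on with no in-frame stop codon. Its annotated start may therefore be the start of translation. If so, its positions do not count from the start of transcription, and the metal response core may lie in transcribed sequence. The Col4a1 window held 2 metal response cores, at -118 and -68. The start of Col4a1 lies 77 bases from that of Col4a2 on the opposite strand, so the 2 genes share 176 bases of these windows. The Lamb3 window held 1 core, at -52. An entry was matched by symbol for 22 of the 31 chains and subunits, with none shown for Col1a1, Col2a1, Col3a1, Col14a1, Lamb2, Itga7, Itgb2 and Itgb4, and 13 of the 22 windows held at least 1 metal response core. The same held for 24.2% of all 33469 windows of this length and for 35.9% of the 6885 windows of genes measured here. The median GC content was 62.7% in members' windows, 51.7% over all windows and 60.7% over those of measured genes. The TATA box letters were found in 2 of the 22 windows against 7.35% of those of measured genes. The NF-Y letters were found in 5 against 38.5%, and the GC box in 11 against 62.2%. A match of letters is a description and was not tested against the expression values.

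Levels are log2 of the scanner's processed signal relative to the 75th percentile of its own array, so a level of 0 is as bright as that percentile, and a difference of 1 is a doubling. Arrays differed in brightness, with 13854 to 24009 of 43379 non-control spots well above background. The epithelial markers Epcam, Krt8, Krt18 and Cdh1 were well above background on 15 of 15 arrays. In one limma fit of 21011 probes over all 15 arrays, adjusted over all probes by the Benjamini-Hochberg method, 0 probes passed 0.05 in any of the 3 diet comparisons. At an unadjusted 0.05, 822 probes passed in deficient against control tumours, 415 in supplemented against control and 1482 in supplemented against deficient. No diet difference of a single gene below is therefore a call, and the 95% interval stands beside those the results turn on. As each tumour was left out in turn, the sign turned for 9 of 30 chains and subunits in deficient and for 10 of 30 in supplemented against control tumours. It turned for 23 of 30 between the treated groups.

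In the tumours of zinc-deficient rats, 30 of the 31 chains and subunits had a lower mean than in control tumours, and the median difference was -0.33 on the log2 scale. Of all tested probes, 50.7% were lower and their median difference was -0.005. With 1 probe to a gene, 55.8% of measured genes were lower and the median was -0.03. All 7 fibrillar, all 6 other collagen and all 8 basement membrane chains were lower, as were 9 of 10 integrin subunits, the exception being Itga8. The median differences were -0.44 for fibrillar chains, -0.56 for other collagens, -0.31 for basement membrane chains and -0.15 for integrins. The median over the 31 ran from -0.46 without control 5 to -0.22 with the deposited values. No member passed the adjusted threshold (limma, adjusted p from 0.987 to 0.998). At an unadjusted 0.05, 2 of 31 passed, both lower, while 3.91% of all probes passed and 2.05% passed in that direction. No member had groups that did not overlap, which 0.39% of probes had.

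In supplemented tumours 26 of the 31 members were below control, with a median of -0.27 over the members, against 51.2% of probes below and a median of -0.007. With 1 probe to a gene 50.8% were below. The median over the 31 was -0.14 without control 4, -0.18 without supplemented 1 and -0.42 with normexp background correction. Again all 7 fibrillar chains (median -0.36) and all 8 basement membrane chains (median -0.21) were lower. Of the other collagens 5 of 6 were lower (median -0.52), and of the integrins 6 of 10 (median -0.05). Of the 31, 1 passed an unadjusted 0.05, a lower one, as did 1.98% of probes, with 1.15% in that direction. No member had non-overlapping groups against 0.357% of probes. In all 31 the limma adjusted p rounded to 1.000. Both comparisons use the same 5 control tumours, so a count in one is not independent of the count in the other. The control mean was the highest of the 3 diets for 25 of 31 members (80.6%), which held for 29.9% of probes and 32.6% of measured genes, and it was the lowest of the 3 for none of the 31.

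Supplemented and deficient tumours were compared directly without the controls. Of the 31 members, 20 were higher in the supplemented tumours and 11 lower, with a median of 0.08, while 49.9% of probes and, with 1 probe to a gene, 54.4% of genes were higher. The class medians lay between 0.04 for integrins and 0.11 for other collagens. None of the 31 passed an unadjusted 0.05, against 7.05% of probes, and no groups were free of overlap, against 1.5%. The count depended on the background correction and on single tumours: 13 of 31 were higher with normexp correction, 12 of 31 without deficient 3 and 14 without supplemented 3.

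The means over each class show how far single tumours carry these differences. Averaged over the 7 fibrillar chains, the level was 2.49, 2.22, 1.85, 2.53 and 2.17 in deficient tumours 1 to 5, 1.67, 3.06, 2.85, 3.32 and 2.29 in controls, and 2.07, 1.26, 3.23, 2.37 and 2.46 in supplemented tumours. Controls 2, 3 and 4 and supplemented 3 were the high tumours, and control 1 and supplemented 2 the low ones, so the groups overlapped. Without control 4 the fibrillar median in deficient tumours was -0.27, and without supplemented 2 that in supplemented tumours was -0.02. The within-slide medians of the fibrillar chains ran from -0.79 to 1.02 in deficient tumours and from -0.74 to 1.06 in supplemented ones, over 4 slides that each held all 3 diets. Over all 31 members they ran from -0.56 to -0.20 in deficient tumours, below 0 on each slide, and from -0.54 to 0.015 in supplemented ones. For the other collagens the within-slide medians in deficient tumours were -0.98 to -0.38, for basement membrane chains -0.61 to 0.17 and for integrins -0.24 to -0.10. Since each array is RNA of a whole tumour, fewer cells of a type and less RNA per cell cannot be told apart.

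**Figure D1:**
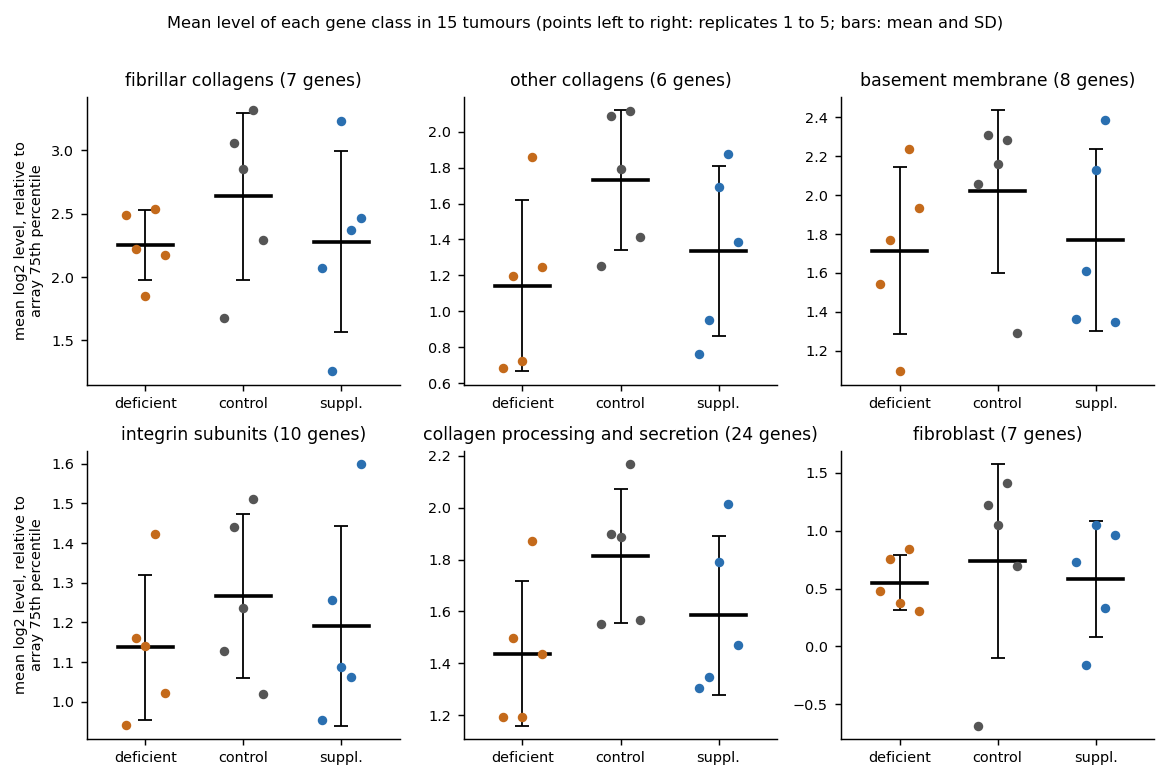
Mean log2 level, relative to the array 75th percentile, of the members of each class (4 panels), of 24 collagen processing genes and of 7 fibroblast markers in each of 15 tumours, by diet; lines and bars give the mean and SD of 5 tumours. Control means are the highest in all 4 classes, and the points of the 3 diets overlap in every panel.

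**Figure D2:**
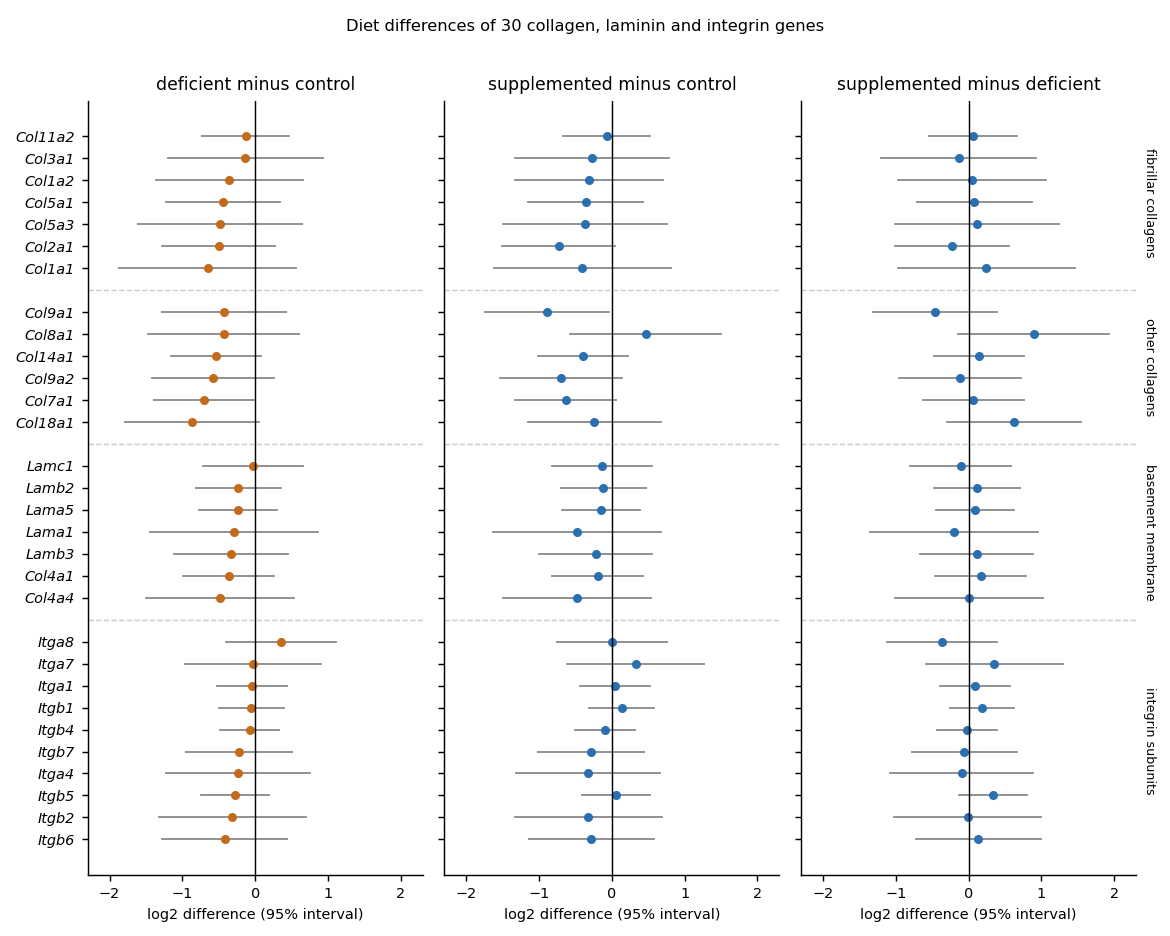
Log2 difference between diets for 30 of the chains and subunits, by class, with the 95% interval from limma. Of the 30 points, 29 lie below 0 in deficient minus control and 25 in supplemented minus control, and all intervals drawn span 0 but that of Col7a1 in the former and Col9a1 in the latter.

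Among the fibrillar collagens, Col1a1 encodes the alpha1 chain of type I collagen, the main protein of stromal fibres. Its level was 5.16, 4.38, 3.57, 5.25 and 4.55 in deficient tumours 1 to 5, 3.68, 5.39, 5.94, 6.45 and 4.71 in controls, and 4.86, 2.96, 6.36, 5.12 and 4.83 in supplemented tumours. Controls 3 and 4 and supplemented 3 were high, supplemented 2, deficient 3 and control 1 were low, and the groups overlapped over a range of 3.50. The differences between diets were -0.65 (95% interval -1.87 to 0.56) for deficient and -0.41 (-1.62 to 0.81) for supplemented tumours against control, and 0.24 (-0.97 to 1.46) between the treated groups. Without supplemented 2 the difference of supplemented from control tumours was 0.06, and without control 4 that of deficient from control tumours was -0.35.

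Col1a2, the other type I chain, stood at 5.47, 5.50, 5.51, 5.95 and 5.44 in deficient tumours, at 4.45, 6.05, 6.43, 7.22 and 5.48 in controls and at 5.55, 4.09, 6.92, 5.79 and 5.73 in supplemented ones. The deficient tumours were close together, with an SD of 0.21 against 1.04 and 1.01 in the other groups. Col3a1, whose type III homotrimer joins type I fibrils, was at 4.78, 3.89, 4.29, 4.76 and 4.01 in deficient, 2.69, 5.30, 4.94, 5.46 and 4.00 in control and 3.87, 3.16, 5.65, 3.88 and 4.48 in supplemented tumours. Control 1 was the lowest of the 15 and supplemented 3 the highest, and the control range held all deficient values. The Col3a1 differences were -0.13 (-1.19 to 0.93) for deficient and -0.27 (-1.33 to 0.79) for supplemented tumours against control.

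Col2a1 encodes type II collagen, better known from cartilage. Its levels were 2.43, 3.31, 2.97, 3.96 and 3.05 in deficient, 3.88, 4.10, 3.38, 4.04 and 2.84 in control and 2.08, 2.23, 3.19, 4.01 and 3.07 in supplemented tumours. Control 5 was the only control under 3, and deficient 4 and supplemented 4 stood among the highest controls. The supplemented tumours differed from control by -0.73 (-1.51 to 0.05) and the deficient ones by -0.50 (-1.28 to 0.28). A second, dimmer Col2a1 probe gave 0.47 for deficient against control, the opposite sign. Of the minor fibril chains, Col5a1, Col5a3 and Col11a2 were lower in both diets, with differences from -0.48 to -0.13 in deficient and from -0.37 to -0.07 in supplemented tumours.

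Outside the fibrils, Col7a1 encodes type VII collagen, which forms the anchoring fibrils under the basement membrane. Its level was -0.92, 0.41, -0.26, 0.56 and 0.43 in deficient tumours, 0.77, 1.45, 0.71, 0.83 and -0.03 in controls, and 0.16, -0.56, -0.08, 0.84 and 0.19 in supplemented tumours. Control 5 fell among the deficient values, and the other 4 controls lay above all 5 of them. The difference of deficient from control tumours was -0.70 (-1.39 to -0.01), with a limma p of 0.047 unadjusted and 0.987 adjusted. It was -0.46 without deficient 1, whose value was the lowest of the 15, and -0.38 without the 3 dimmest arrays, with unadjusted limma p-values of 0.15 and 0.26.

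Col9a1 and Col9a2 encode 2 of the 3 chains of type IX collagen, which decorates type II fibrils. Col9a1 stood at -0.32, -0.61, -1.30, 0.56 and -0.47 in deficient, -0.996, 0.63, 0.83, 0.12 and -0.62 in control and -1.38, -1.04, -0.05, -0.42 and -1.58 in supplemented tumours. All 5 supplemented values were under 0, as were 2 of the controls. The supplemented minus control difference was -0.89 (-1.74 to -0.03), the largest of any member in that comparison, with a limma p of 0.043 unadjusted and 1.000 adjusted. It was below 0 on all 4 slides, from -1.33 to -0.39, and a second probe gave -0.52. The unadjusted limma p was 0.056 with scan day as a block, 0.061 with the mean of the probes and 0.091 without the 3 dimmest arrays. It was 0.081 with the deposited values (-0.43) and 0.14 with normexp correction (-0.36). As single tumours were left out the difference ran from -1.13 to -0.68, the latter without control 3.

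Col9a2 followed with 2.57, 3.71, 2.55, 4.67 and 3.72 in deficient, 3.62, 4.64, 4.31, 4.00 and 3.55 in control and 2.81, 3.01, 3.64, 4.32 and 2.84 in supplemented tumours. The groups overlapped, and deficient 4 was the highest of the 15. Col8a1 encodes a type VIII chain found around vessels, and was the one collagen with a mean above control in supplemented tumours. Its values were -1.92, -0.90, 0.71, 0.78 and -1.02 in deficient, -0.79, 0.42, -0.92, 0.57 and 0.53 in control and -0.07, -0.18, 0.46, 0.82 and 1.09 in supplemented tumours. The supplemented mean was above control by 0.46 (-0.575 to 1.499) and above deficient by 0.90 (-0.14 to 1.93), the latter above 0 on all 4 slides. Without control 3 the former was 0.24, and without deficient 1 the latter was 0.53. Deficient 3 and 4 lay among the supplemented values.

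Col18a1 encodes the basement membrane collagen from which endostatin is cut, and was singled out after its values were seen, as the member with the largest difference of deficient from control tumours (-0.86). Its level was 4.28, 4.33, 2.87, 5.20 and 4.33 in deficient, 4.44, 5.20, 5.46, 5.61 and 4.62 in control and 3.36, 4.66, 5.36, 5.50 and 5.25 in supplemented tumours. Deficient 3 and supplemented 1 were low, and deficient 4 was level with control 2. The interval of that difference was -1.78 to 0.06, and it was below 0 on all 4 slides. Without deficient 3 it was -0.53. Col14a1, a fibril-associated chain, was lower in both diets too, at a mean of 0.07 ± 0.46 in deficient, 0.61 ± 0.55 in control and 0.21 ± 0.46 in supplemented tumours (SD, n = 5 each).

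**Figure D3:**
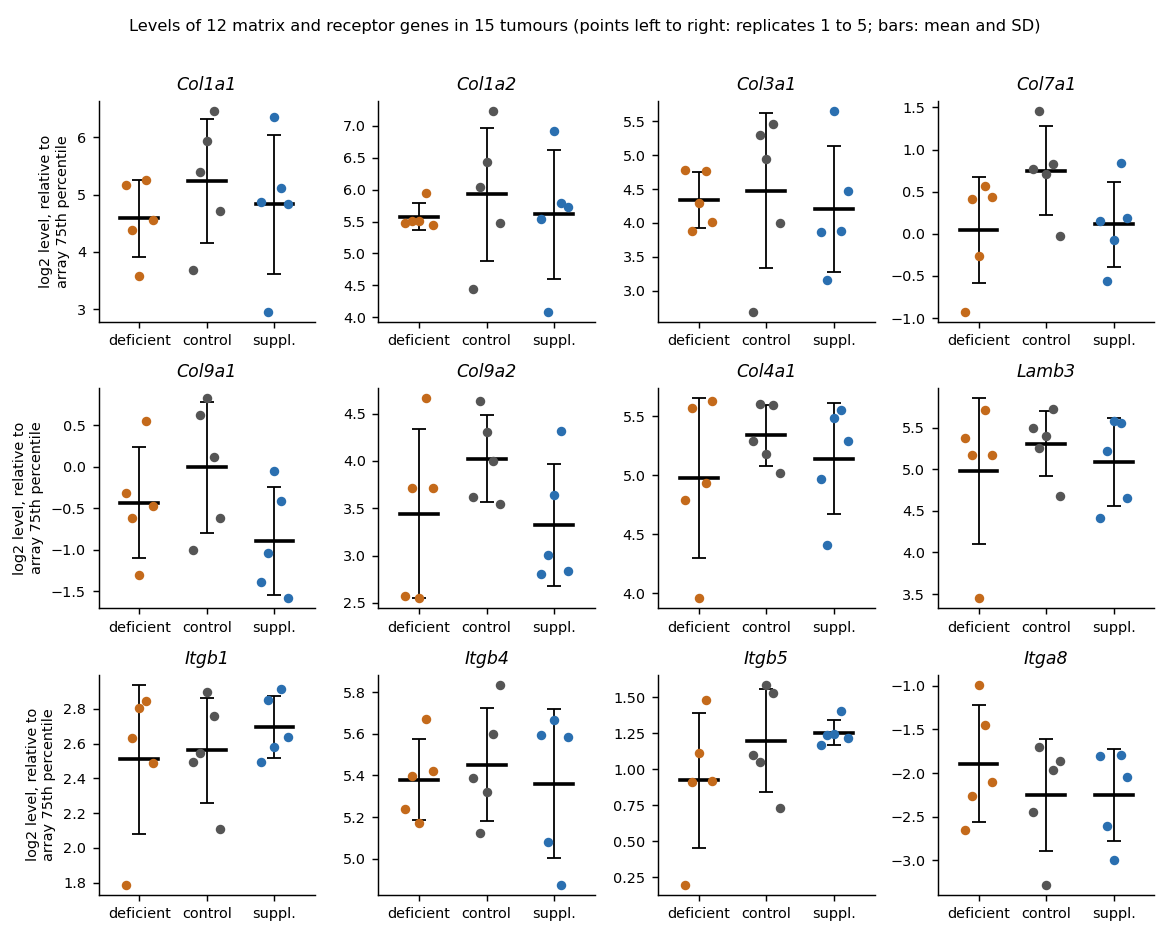
Log2 level, relative to the array 75th percentile, of 12 members in each of 15 tumours by diet, with the mean and SD of 5 tumours. Control Col3a1 values run from 2.69 to 5.46, deficient Col1a2 values lie close together (SD 0.21), and no panel shows a diet whose points clear those of another.

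In the basement membrane class, Col4a1 encodes a chain of the type IV collagen network of nearly all basement membranes. Its level was 4.79, 5.57, 3.96, 4.94 and 5.63 in deficient, 5.29, 5.61, 5.18, 5.60 and 5.02 in control and 4.97, 4.41, 5.49, 5.55 and 5.29 in supplemented tumours. Controls were the tightest group, with an SD of 0.26 against 0.68 and 0.47. Deficient 3 and supplemented 2 were the low tumours, while the highest of the 3 groups stood at 5.63, 5.61 and 5.55. The differences from control were -0.36 (-0.99 to 0.27) for deficient and -0.20 (-0.83 to 0.43) for supplemented tumours, and without deficient 3 the former was -0.11.

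Lamb3, the beta3 chain of laminin-332, stood at 5.38, 5.17, 3.45, 5.71 and 5.17 in deficient, 5.49, 5.25, 5.404, 5.72 and 4.67 in control and 4.41, 5.22, 5.58, 5.56 and 4.65 in supplemented tumours. Deficient 3 alone was far below the rest. The difference of deficient from control was -0.33 (-1.11 to 0.45), and 0.05 without that tumour. That of supplemented from control was -0.22 (-1.002 to 0.56).

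Among the other laminin chains, Lama5, the alpha chain of laminin-511, Lamb2, Lamc1, which is shared by most laminins, and Lama1 differed from control by -0.29 to -0.03 in deficient and by -0.48 to -0.12 in supplemented tumours. Lama1 varied most among the laminins, from -1.98 in supplemented 1 to 0.85 in supplemented 4. Col4a4, a chain of the specialised type IV network, was well above background on 1 deficient, 3 control and 1 supplemented array, so its difference of -0.49 in deficient tumours rests mainly on signals near background.

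Averaged over the 8 basement membrane chains, control tumours 1 to 5 stood at 2.06, 2.31, 2.16, 2.28 and 1.29, deficient ones at 1.54, 1.77, 1.09, 2.24 and 1.93 and supplemented ones at 1.37, 1.61, 2.13, 2.39 and 1.35. Control 5 was low, supplemented 4 was the highest of the 15, and deficient 4 and supplemented 3 lay among the other 4 controls. The class median of deficient against control was -0.12 without deficient 3 and -0.47 without control 5.

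Among integrin subunits, Itgb1 encodes the beta1 chain, the common partner of collagen and laminin receptors. It was at 1.79, 2.63, 2.81, 2.84 and 2.49 in deficient, 2.49, 2.55, 2.90, 2.76 and 2.11 in control and 2.49, 2.85, 2.58, 2.91 and 2.64 in supplemented tumours. Deficient 1 was the lowest, and the other 14 lay between 2.11 and 2.91. The differences from control were -0.05 (-0.49 to 0.39) for deficient and 0.13 (-0.31 to 0.58) for supplemented tumours, and the sign of the first turned with the probe, with the dim arrays left out and with array brightness in the fit.

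Itgb4, the beta4 chain of hemidesmosomes that binds laminin-332, was the steadiest member. Its values were 5.24, 5.397, 5.17, 5.67 and 5.42 in deficient, 5.39, 5.12, 5.32, 5.60 and 5.84 in control and 5.59, 5.08, 5.66, 4.87 and 5.58 in supplemented tumours. The whole range was 0.96, and the differences from control were -0.07 (-0.48 to 0.34) and -0.09 (-0.50 to 0.31). Neither interval reached a halving or a doubling of Itgb4.

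Itgb5, the beta5 chain of a vitronectin receptor, was at 0.20, 0.91, 1.11, 1.48 and 0.92 in deficient, 1.096, 1.05, 1.59, 1.53 and 0.73 in control and 1.17, 1.24, 1.25, 1.401 and 1.21 in supplemented tumours. The 5 supplemented tumours lay close together, with an SD of 0.09, and deficient 1 was the low one. The difference of supplemented from deficient was 0.33 (-0.14 to 0.80) and that of deficient from control -0.27 (-0.74 to 0.19). Without deficient 1 the former was 0.15 and the latter -0.09.

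Itga8, an alpha chain of mesenchymal cells, was the one subunit with a higher mean in deficient tumours. It stood at -2.65, -2.27, -0.99, -1.45 and -2.10 in deficient, -2.45, -1.71, -3.28, -1.96 and -1.86 in control and -1.81, -2.61, -2.99, -1.80 and -2.05 in supplemented tumours. It was well above background on 7 of 15 arrays only, and deficient 3 and 4 were high. The difference of deficient from control was 0.36 (-0.40 to 1.12) with this probe and 0.999 with a second one. It was 0.13 without deficient 3 and 0.10 without control 3. Itga7, the laminin-binding alpha chain of muscle, was above control in supplemented tumours by 0.33 (-0.61 to 1.27). The leukocyte chain Itgb7 differed there by -0.28 (-1.01 to 0.44). The other subunits, Itga1, Itga4, Itgb2 and Itgb6, differed from control by -0.42 to -0.05 in deficient and by -0.33 to 0.05 in supplemented tumours.

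Both binding proteins were measured on all 15 arrays. Itgb1bp1, an adaptor at the beta1 tail, differed by 0.03 (deficient) and -0.01 (supplemented) from control. Itgb3bp, a coregulator also found at centromeres, differed by -0.35 and -0.27.

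The members also differed in how far tumours of one diet lay apart. The pooled within-diet SD had a median of 0.85 over fibrillar chains, 0.70 over other collagens, 0.53 over basement membrane chains and 0.60 over integrins, and 0.39 over all probes. Col1a1 had the largest, 1.02, and 97.6% of probes had a smaller one. Lama1 (0.97), Col5a3 (0.95) and Col3a1 (0.89) followed. At the other end stood Itgb4 (0.28), Itgb1 (0.32), Itgb5 (0.34) and Itga1 (0.36), each below the median of all probes.

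**Figure D4:**
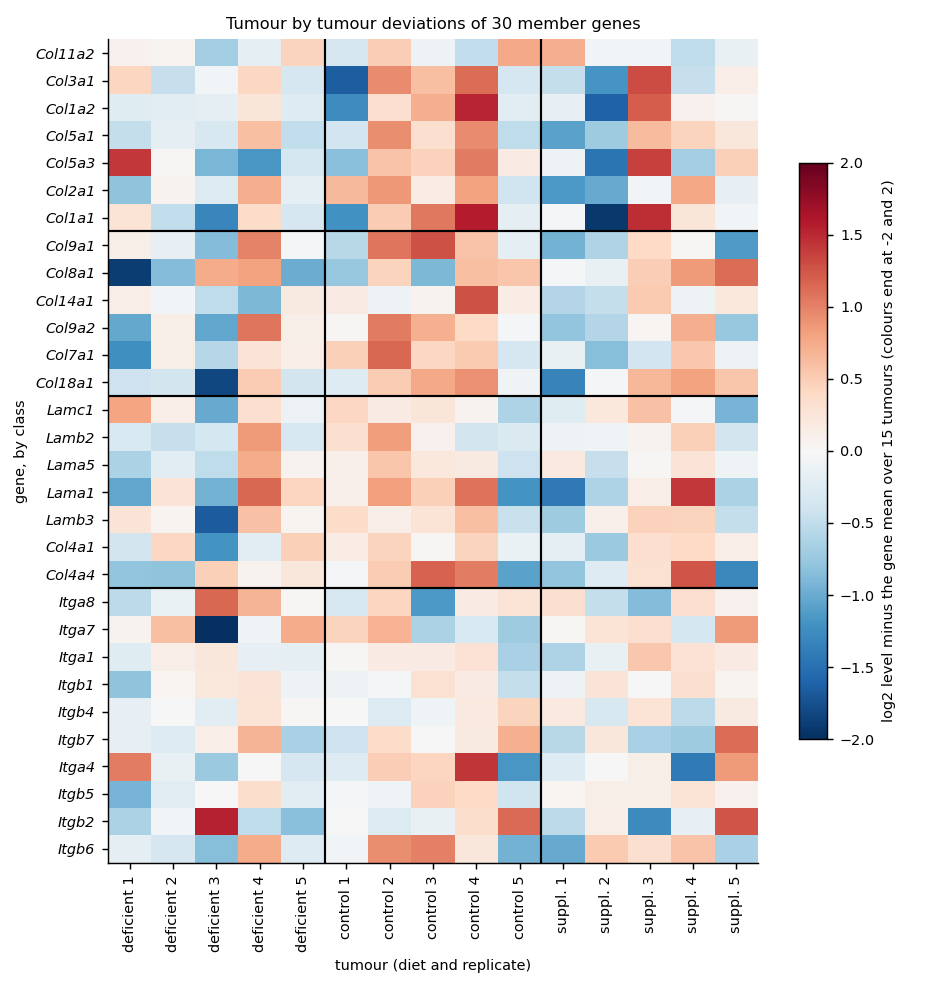
Level of each of 30 members in each of 15 tumours, as log2 deviation from the mean of that gene over the tumours, genes grouped by class. Controls 2 to 4 are mostly red (above the mean) in the 3 collagen and laminin blocks, deficient 3, control 5 and supplemented 1 are mostly blue in the basement membrane block, and integrins of one tumour are of mixed colours.

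The collagen pairs compared here varied together across the tumours, as did some chains of different proteins. In all 6 pairs were compared over 15 tumours, with 100000-resample permutation p-values adjusted over the pairs. Col1a1 and Col1a2 had a Pearson r of 0.93 (adjusted permutation p = 6e-05, from the smallest p of 1e-05 that the resamples can give) and a Spearman rho of 0.86 (adjusted permutation p = 0.00018). Without the 2 tumours farthest from the Col1a1 median r was 0.87. Col1a1 and Col3a1 had r = 0.85 (adjusted permutation p = 0.0003) and rho = 0.81 (adjusted permutation p = 0.00096), and r = 0.79 without the 2 farthest tumours. For Col9a1 and Col9a2 r was 0.81 (adjusted permutation p = 0.00081), rho 0.77 (adjusted permutation p = 0.00288) and r without the 2 farthest tumours 0.78. After removal of diet and slide the 3 values of r were 0.95, 0.89 and 0.68. For Col9a1 and Col9a2 rho then was 0.475 (adjusted permutation p = 0.11), which missed the threshold, and r without the 2 farthest tumours was 0.53. Slides held 3 or 4 arrays, too few for a value within each. Over the 15 tumours r of Col9a1 and Col9a2 was 0.65 with normexp correction (0.47 without the 2 farthest tumours). With the deposited values it was 0.89 (0.88). As deviations from the diet mean, Col9a2 had r = 0.78 with Col9a1, 0.89 with Lama1 and 0.82 with Lama5. The 2 laminin chains were picked after their values were seen.

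Itga1 and Itgb1, which form a collagen receptor, had r = 0.53 (adjusted permutation p = 0.052) and rho = 0.63 (adjusted permutation p = 0.016), with r = 0.40 without the 2 farthest tumours and r = 0.28 after removal of diet and slide. Itga4 and Itgb7, the gut-homing receptor of lymphocytes, had r = 0.28 (adjusted permutation p = 0.30) and rho = 0.35 (adjusted permutation p = 0.20), with r = 0.12 without the 2 farthest tumours. Itga4 was well above background on 8 of 15 arrays.

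**Figure D5:**
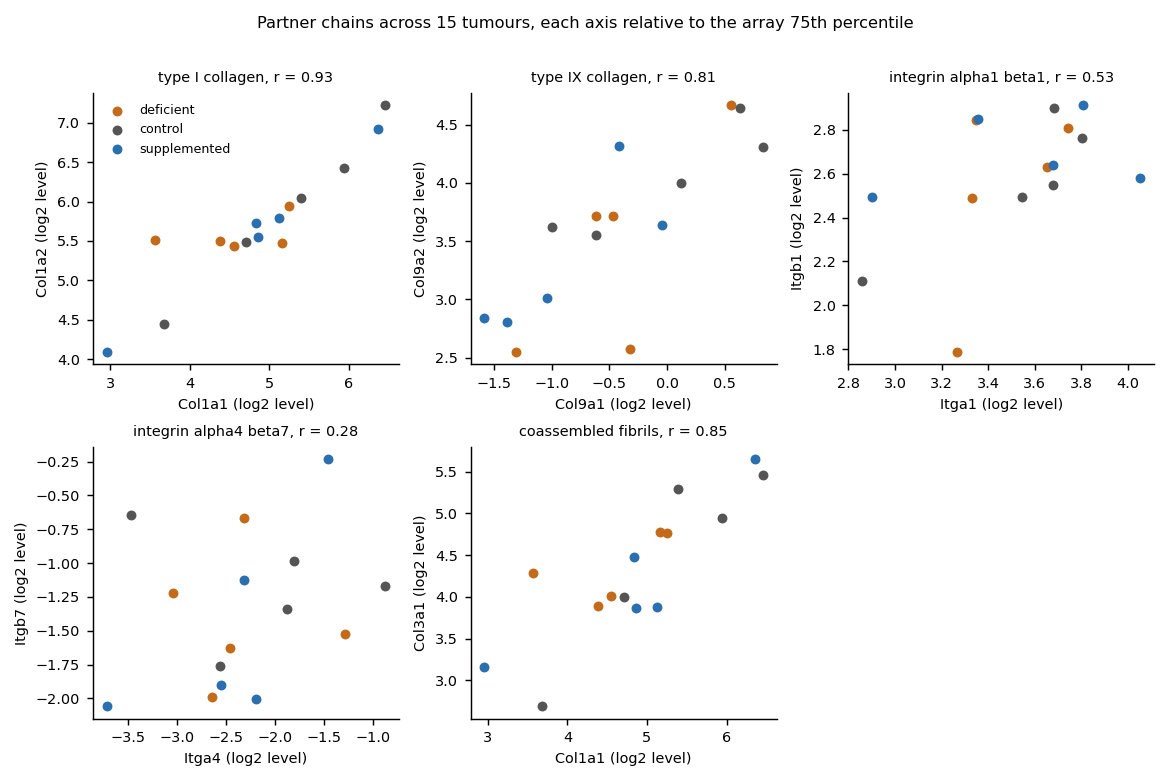
Log2 levels of the 2 genes of 5 of the pairs in 15 tumours, coloured by diet, with Pearson r. Col1a1 against Col1a2 (r = 0.93) runs along a line through all 3 diets, and Itga4 against Itgb7 (r = 0.28) scatters.

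Over all 465 pairs of members, as deviations from the diet mean in 15 tumours, members of a class kept together to different degrees. All 28 pairs of basement membrane chains had a positive r, with a median of 0.43. The median was 0.39 over the 21 fibrillar pairs, 16 of them positive, and 0.01 over the 45 integrin pairs, 25 of them positive. Over the 15 pairs of other collagens it was 0.34, 12 of them positive. Pairs across classes could be as close, with a median of 0.46 over 48 pairs of other collagens with basement membrane chains, 41 positive. It was 0.38 over 42 pairs of fibrillar with other collagens and 0.28 over 56 pairs of fibrillar with basement membrane chains. For integrins with another class it ran from 0.12 to 0.22. The highest single value was that of Itgb1 and Itgb5 (0.93), and the lowest that of Itgb2 and Lamc1 (-0.85). These pairs were picked as extremes after their values were seen and have no test. The points share an array and its scaling. Removing array brightness gave medians of 0.51 within basement membrane chains, 0.38 within fibrillar chains and 0.05 within integrins.

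Markers of the cell types in a mammary tumour moved with particular members, which were picked as extremes after their values were seen. Fibroblast marker means ran from 0.30 to 0.84 in deficient, -0.68 to 1.41 in control and -0.16 to 1.05 in supplemented tumours, over 7 measured of 12 markers, and 4 of the 7 were lower than control in deficient and 5 in supplemented tumours. With them the fibrillar mean had r = 0.85 over the 15 tumours. As deviations from the diet mean, Col3a1 (0.88), Col1a2 (0.86) and Col1a1 (0.80) went with that list. Lum and Thy1 of the list were under the limit for measurement. The part of fibroblast content in the diet differences was not tested.

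Leukocyte markers, 9 measured of 17, had means from 0.96 to 2.59 in deficient, 1.12 to 2.31 in control and 0.69 to 2.67 in supplemented tumours. Itgb7 (r = 0.89) and Itgb2 (0.84), the leukocyte subunits, went with them, and Lamc1 (-0.68) and Lamb3 (-0.62) ran against them. Deficient 3, the low tumour for Lamb3, had the highest leukocyte mean of its group. Of the leukocyte markers 3 of 9 were below control in deficient and 6 of 9 in supplemented tumours. Col4a1 had r = 0.82 with the mean of 7 basal and myoepithelial markers, of which 6 were below control in each diet. Adipocyte markers, 4 measured of 10, were all above control in deficient (median 0.99) and in supplemented tumours (median 0.59), and their mean was highest in deficient 1 (2.98). Luminal markers had means from 3.04 to 3.48 in deficient, 3.00 to 3.30 in control and 2.84 to 3.17 in supplemented tumours, and 6 of 10 were below control in each diet. In deficient tumours 2 of the 10 passed an unadjusted 0.05 in limma, both higher, Elf5 (1.14) and Cldn4 (0.41), while 3.91% of all probes passed. So did 1 of the 9 leukocyte markers and 1 of 5 skeletal muscle markers, each higher. Over all measured genes 55.8% were below control in deficient and 50.8% in supplemented tumours. What these cell types contribute to the members' differences was not tested.

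The genes around the members were taken from lists of the pathway. Of all measured genes, with 1 probe to a gene, 55.8% were lower in deficient and 50.8% in supplemented than in control tumours. Between the treated groups 54.4% were higher in supplemented tumours. Of 24 measured collagen processing and secretion genes, all 24 had a lower mean in deficient than in control tumours (median -0.30), 0 passed the adjusted threshold and 2 passed an unadjusted 0.05 in limma, which 3.91% of all probes did. Those were Pcolce and Loxl4. Pcolce, the enhancer of procollagen C-proteinase, was at 2.36 against 3.43 in controls (a difference of -1.07), and the crosslinking oxidase Loxl4 differed by -0.82. In supplemented tumours 19 of the 24 were lower (median -0.22), and 1 passed an unadjusted 0.05, against 1.98% of probes. That was P3h4 (-0.54), part of a collagen-modifying complex. Between the treated groups 19 of the 24 were higher in supplemented tumours (median 0.12). The mean of this list went with that of the other collagens (r = 0.97) and the basement membrane chains (r = 0.85) over 15 tumours. By gene, r on deviations was highest for Lama1 (0.92), Col9a2 (0.87) and Col5a1 (0.86), and lowest for Col11a2 (-0.36) and Itgb2 (-0.35). These genes were picked after their values were seen, and the points share an array and its scaling.

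Of 7 further basement membrane components 6 were lower than control in each diet (medians -0.29 and -0.29), with Smoc2 higher in both, and 0 had an unadjusted p under 0.05. Integrin adhesion and signalling genes were lower in 14 of 18 in deficient (median -0.23) and 16 of 18 in supplemented tumours (median -0.15). Over all measured genes 55.8% and 50.8% were lower. In each comparison 1 of 18 passed an unadjusted 0.05 in limma, while 3.91% and 1.98% of all probes passed. In deficient tumours it was Plec, the hemidesmosome linker that binds Itgb4 (-0.42), and in supplemented ones Bcar1, a docking protein downstream of integrins (-0.69). Receptors of collagen and laminin other than integrins were lower in 5 of 7 and 3 of 7, with medians of -0.05 and 0.05. None of these genes passed the adjusted threshold in limma.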

How the data were processed

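RNA of 15 tumours was labelled with Cy3 and hybridised to 1-colour Agilent 4x44K rat arrays, per the labels' protocols. The deposited intensity values are processed signals of the scanner software, Feature Extraction, whose version is 11.5.1.1 in the file headers and 15.5 in the submitters' processing notes. The authors' deposited table of log2 values has an unstated normalization, with a median near 7.1 on every array, and served as an alternative. Outlier spots were left out, log2 signals were centred on each array's 75th percentile and spots of a probe averaged. Accessions named 17502 of 41012 probes (42.7%). Differences come from limma 3.58.1 (R 4.3.3), 1 fit with 1 coefficient per diet, two-sided, checked on simulated data. The number of arrays limits the precision, and 0 spots were saturated.

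Genes were given values by a rule: per class and comparison, the smallest p in each direction, and in addition Col1a1, Col3a1, Col4a1, Col4a2, Lama3, Lamb3, Itga6, Itgb4 and Itgb1. Of these, Col4a2, Lama3 and Itga6 are among the genes not analysed here and have no values. Values of other members, such as Col1a2, Col9a2, Col14a1 and Col18a1, stand outside that rule and were chosen with their values known. A further measured chain, kept in the counts, medians and class means, is not reported here. The members and all 11 gene lists were chosen with earlier results of these data known. Of the lists, endothelium had 4 of 5 and skeletal muscle 3 of 5 measured genes higher in deficient tumours, and both 2 and 3 in supplemented ones. Alternatives covered background correction, normalization, filters, blocks, covariates, weights and each tumour left out.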

Additional observations from a re-analysis of the deposited data

Results flagged for a closer look

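Single tumours were checked in 57 groups of 5, and 2 had a value set apart from the rest by more than 0.71 of the group's range (Dixon's test at 95%). By chance about 1 group in 20 has such a value. Lamb3 was lowest in deficient tumour 3, at 3.45, where the next lowest deficient tumour stood at 5.17. The mean of the 8 basement membrane chains was lowest in control tumour 5, at 1.29, where the next control stood at 2.06.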

How the results depend on the processing

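The count of 0 probes past 0.05 held in all 5 tests under every alternative but these: with array weights 1 probe passed in supplemented minus deficient and 1 in the F test over diets, and without supplemented replicate 1 the count was 1 in supplemented minus deficient and in the slope over zinc (range 0 to 1 as each tumour was left out). The fibrillar median in supplemented minus control was -0.95 with normexp background correction, computed from the median spot signal that the files used here hold. The 30 of 31 members below control in deficient tumours were 26 to 30 of 31 under the alternatives that kept all 31 members, 26 without deficient replicate 3. They were 22 of 22 among members with a signal on all arrays, and 34 of 37 with no filter, where 36.2% of probes were lower and the median of all probes shifted by 0.11 (by -0.14 in supplemented minus deficient). The 26 of 31 in supplemented tumours were 23 to 28. Between the treated groups 20 of 31 higher became 13 with normexp, 12 without deficient replicate 3 and 14 without supplemented replicate 3.

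Differences of named genes changed sign as follows, and the cause was not tested. In deficient minus control: Col4a1 with array weights (0.00126), and Itgb1 with brightness as covariate (0.010), without the 3 dimmest arrays (0.0768) and with the mean of its probes (0.073). In supplemented minus control: Itgb1 with normexp (-0.45) and the deposited values (-0.00636), and Itgb7 with normexp (0.29). In supplemented minus deficient, normexp turned Col1a1 (-0.30), Col4a1 (-0.33), Itga8 (0.16), Itgb1 (-0.25) and Lamb3 (-0.30). Array weights turned Col3a1 (0.13), Col4a1 (-0.26), Itgb4 (0.024) and Lamb3 (-0.10). Leaving out the 3 dimmest arrays turned Col3a1 (0.15) and Itgb4 (0.029), brightness as covariate turned Col3a1 (0.048), and the deposited values turned Itgb4 (0.10).

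As each tumour was left out, deficient minus control ranged from -0.58 to 0.11 for Col3a1, -0.16 to 0.13 for Itgb1, -0.16 to 0.023 for Itgb4 and -0.52 to 0.049 for Lamb3. Supplemented minus control ranged from -0.80 to 0.059 for Col1a1 and -0.18 to 0.028 for Itgb4. Supplemented minus deficient ranged from -0.14 to 0.71 for Col1a1, -0.50 to 0.12 for Col3a1, -0.089 to 0.35 for Col4a1, -0.10 to 0.10 for Itgb4, -0.60 to 0.10 for Lama1 and -0.27 to 0.29 for Lamb3. The correlations of Itga1 with Itgb1 and of Itga4 with Itgb7 were 0.86 and 0.76 with normexp, and 0.33 and 0.02 with the deposited values.

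Replicate numbers recur in the 3 diets but did not pair the tumours: same-numbered tumours had a mean correlation of -0.0004 in their deviations, and 1 of 15 was closest to its own number. With the replicate block 0 probes passed in any test, and Col7a1 in deficient minus control had an unadjusted limma p of 0.054.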
